A study of Homo sapiens with 6 samples.

Results

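A set of 279 accessible regions carried a peak in both libraries of Huh7 cells with a STUB1 hairpin and in none of the 4 libraries without it. They were found by merging all peak intervals of the 6 libraries on chromosomes 1 to 22 and X that overlapped by at least 1 bp, which gave 28879 regions, and by keeping those present in the V2084D_shSTUB1 libraries alone. The set is 0.966% of all regions and 2.92% of the 9561 regions that had a peak in both of these libraries. Because presence and absence of peaks chose the members, their number and strength are descriptions and were not tested.

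The assay was ATAC-seq, in which the Tn5 transposase cuts and tags open chromatin, and the deposited data are 1 peak list per library. Huh7 is an established human hepatocellular carcinoma line. All 6 libraries came from Huh7 cells with ARID1A knocked out. In the WT group (2 libraries) the cells overexpressed Flag-tagged wild-type ARID1A from a lentivirus, in the V2084D group (2 libraries) they carried the V2084D missense form instead, and in the V2084D_shSTUB1 group (2 libraries) they carried V2084D and a STUB1 knockdown. The ARID1A of every group is therefore a stably introduced copy and not the endogenous gene, and the labels do not say whether the knockout is 1 clone. No title names a control hairpin, so the lowering of STUB1 and the presence of a hairpin cannot be told apart. Nothing states that the libraries of a group were separate cultures.

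ARID1A helps SWI/SNF (BAF) complexes, of which it is a subunit, to engage DNA, and these complexes use ATP to move and evict nucleosomes at promoters and enhancers. STUB1 (CHIP) is a ubiquitin ligase that binds the chaperones HSP70 and HSP90 and marks misfolded client proteins for the proteasome. A region enters a peak list when enough Tn5 cuts pile up there, so weak sites appear in some libraries and not in others of the same cells. In a bulk library a site open in few cells cannot be told apart from one weakly open in many.

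The private regions include promoters, and 5 of the 12 strongest regions at gene ends overlapped a promoter window in the RefSeq table (GRCh38.p14, 250 bases before to 50 after the start of the gene). For HNF4G, ZNF223, CNIH1 and RASA4B the nearest start given was that of another gene or none. No overlap could be seen at those genes, which does not show that their regions are not promoters. Those 5 windows are printed 5′ to 3′ on the strand of the gene, because the private regions overlap them, in whole or in part: the SLC12A4 peak of V2084D_shSTUB1 replicate 1 reaches only the edge of its window. Capitals mark matches to 8 short motifs searched on both strands. The motifs are AP-1 (TGACTCA), CREB and ATF (TGACGTCA), the E-box (CACGTG), SP and KLF (GGGCGG), the CCAAT box (CCAAT), ETS (CCGGAAG), the TATA box (TATAAA) and the heat shock factor motif (TTCNNGAA, where N is any base). Neighbouring matches can overlap, as in the run GGGCGGGCGG of SLC12A4.
SLC12A4: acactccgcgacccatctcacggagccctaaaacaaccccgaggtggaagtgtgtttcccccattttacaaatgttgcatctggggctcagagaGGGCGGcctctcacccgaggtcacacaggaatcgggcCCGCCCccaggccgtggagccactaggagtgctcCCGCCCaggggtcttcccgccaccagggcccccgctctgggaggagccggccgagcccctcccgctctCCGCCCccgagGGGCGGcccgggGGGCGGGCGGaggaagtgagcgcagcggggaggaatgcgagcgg
PAK5: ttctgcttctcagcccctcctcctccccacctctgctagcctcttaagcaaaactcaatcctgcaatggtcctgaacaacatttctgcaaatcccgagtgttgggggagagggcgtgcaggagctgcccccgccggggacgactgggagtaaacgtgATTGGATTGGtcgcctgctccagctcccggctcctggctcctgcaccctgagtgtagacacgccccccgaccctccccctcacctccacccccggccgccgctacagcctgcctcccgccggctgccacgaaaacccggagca
IGBP1: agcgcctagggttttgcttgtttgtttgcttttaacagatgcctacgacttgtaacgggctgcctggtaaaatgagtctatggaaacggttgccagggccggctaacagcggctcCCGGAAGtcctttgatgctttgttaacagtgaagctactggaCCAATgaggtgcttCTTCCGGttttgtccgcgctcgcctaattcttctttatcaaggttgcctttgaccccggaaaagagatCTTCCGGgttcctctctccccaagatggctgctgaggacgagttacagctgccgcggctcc
PGBD5: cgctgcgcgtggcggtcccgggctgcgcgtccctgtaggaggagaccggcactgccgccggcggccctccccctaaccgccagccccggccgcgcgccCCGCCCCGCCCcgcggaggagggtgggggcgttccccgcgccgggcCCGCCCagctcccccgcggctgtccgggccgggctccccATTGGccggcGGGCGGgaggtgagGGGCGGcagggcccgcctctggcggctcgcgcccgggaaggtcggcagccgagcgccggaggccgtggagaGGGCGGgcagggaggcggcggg
AMIGO3: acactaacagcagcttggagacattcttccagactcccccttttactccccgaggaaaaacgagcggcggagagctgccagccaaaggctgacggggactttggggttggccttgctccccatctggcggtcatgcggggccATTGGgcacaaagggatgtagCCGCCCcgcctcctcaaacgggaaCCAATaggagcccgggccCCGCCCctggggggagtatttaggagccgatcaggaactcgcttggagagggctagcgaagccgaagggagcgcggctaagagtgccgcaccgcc

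SLC12A4 encodes the potassium-chloride cotransporter KCC1, and its window (chr16:67968645-67968944, minus strand) held 7 SP and KLF matches. The summits lay 195 bases into the gene in V2084D_shSTUB1 replicate 1 and 14 bases before the start in replicate 2. The window of PAK5, a p21-activated kinase gene (chr20:9839027-9839326, minus strand), held 2 CCAAT boxes side by side on the reverse strand, with summits 12 and 297 bases into the gene. IGBP1 encodes a regulatory subunit of PP2A-type phosphatases, and its window (chrX:70133685-70133984, plus strand) held 3 ETS matches and 1 CCAAT box. Both IGBP1 summits, 113 and 119 bases before the start, lay within 6 bp of each other. PGBD5, a gene derived from a piggyBac transposase, had the most GC-rich of the 5 windows (83.7% GC, chr1:230426283-230426582, minus strand), with 6 SP and KLF matches and 1 CCAAT box. The window of AMIGO3, a leucine-rich repeat adhesion gene (chr3:49719635-49719934, minus strand), held 2 SP and KLF matches and 2 CCAAT boxes, with summits 36 and 60 bases before the start. A match is a description of letters and not a bound site.

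Over the whole set, 41 promoter windows overlapped a private region. No protein-coding gene on chromosome 8 had a start given, so members there, such as those at HNF4G, TNFRSF10B and FDFT1, could not be counted. Their median GC content was 68.7%, against 67.0% for the 841 promoters in regions private to the other pairs of libraries, 64.3% for the 2554 in regions open in all 6 libraries and 62.7% for all 15812. The SP and KLF motif was in 30 of the 41 (73.2%), in 75.1% of the promoters private to other pairs and in 58.5% of all promoters. CCAAT boxes were in 16 (39.0%, all promoters 36.3%), ETS matches in 6 (14.6%, all 14.2%) and E-boxes in 5 (12.2%, all 8.87%). The heat shock factor motif was in 2 (4.88%, all 6.58%), and AP-1, CREB and ATF, and TATA matches were in 1 each (2.44%, against 3.67%, 2.59% and 9.64% of all). Among the promoters private to other pairs, CCAAT boxes were in 33.5%, ETS matches in 19.98%, E-boxes in 11.8% and TATA boxes in 6.18%. With 41 promoters, 1 promoter is 2.44%, and the motif shares of the private set differ from those of the other pairs by a few promoters.

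**Figure D1:**
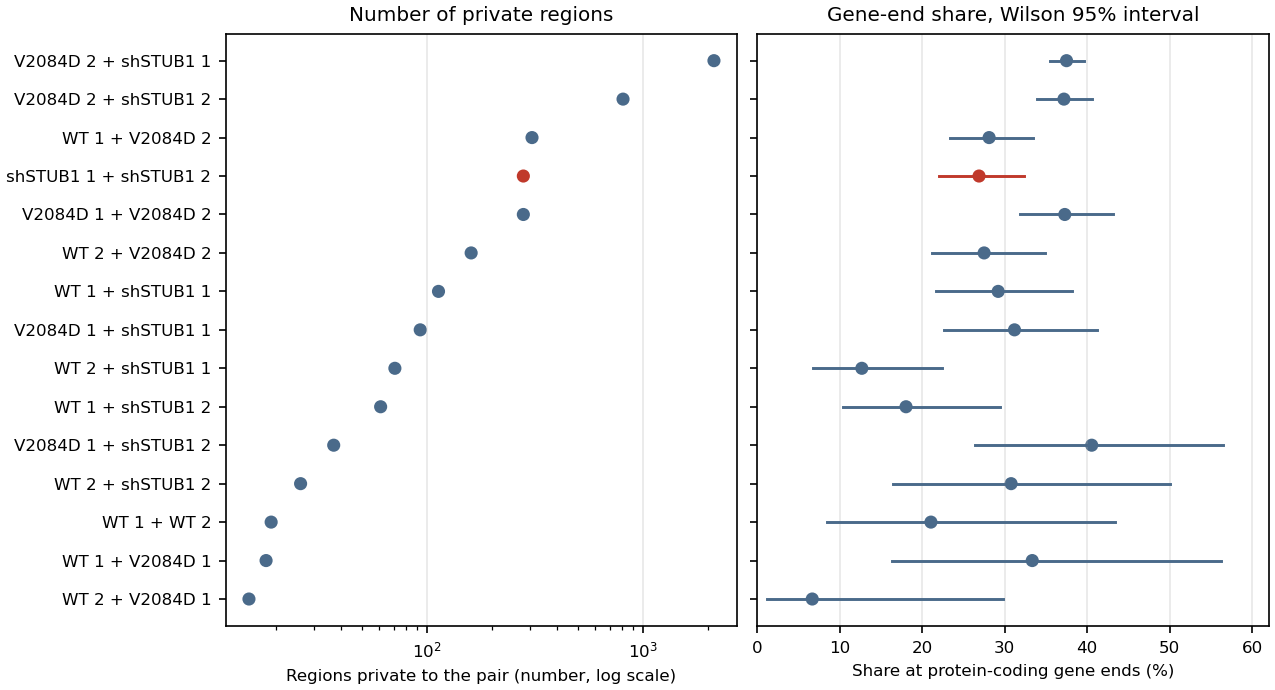
Regions private to each of the 15 pairs of libraries (left, number on a log axis) and the share of them at protein-coding gene ends (right, point and Wilson 95% interval). The pair of shSTUB1 libraries, in red, had 279 regions and a gene-end share of 26.9%, and the 2 pairs of V2084D replicate 2 with a shSTUB1 library had more regions and higher shares.

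Of the other 14 pairs of libraries, 3 had more private regions than the hairpin pair, 1 had the same number and 10 had fewer. V2084D replicate 2 and V2084D_shSTUB1 replicate 1 alone shared 2126 regions, V2084D replicate 2 and V2084D_shSTUB1 replicate 2 alone shared 807, and WT replicate 1 and V2084D replicate 2 alone shared 306. The 2 V2084D libraries alone shared 279, the same number as the hairpin libraries, and the 2 WT libraries alone shared 19. In the full lists each hairpin library therefore had more regions in common with V2084D replicate 2 only than with its own replicate only: the private regions were 1.67% of the list of V2084D_shSTUB1 replicate 1 and 2.26% of the list of replicate 2, while the regions shared with V2084D replicate 2 alone were 12.7% and 6.55% of them. With lists of equal length, V2084D replicate 2 alone shared 111 and 103 regions with hairpin replicates 1 and 2, against 119 for the hairpin pair. In that setting V2084D replicate 1 alone shared 171 and 154 with them. WT replicate 1 alone shared 117 and 124, and WT replicate 2 alone 122 and 135. The hairpin pair thus did not stand out at equal length. The lists differed in length, with 8861 and 6394 regions for WT, 8008 and 22215 for V2084D, and 16687 and 12320 for the hairpin group. Relative depth ran from 1 in WT replicate 2 to 1.70 in V2084D replicate 2, with 1.49 and 1.23 in the hairpin libraries, and the part of list length and depth in the counts was not tested.

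V2084D replicate 2 decided the size of the set. Without it, 1656 regions had a peak in both hairpin libraries and in none of the remaining 3, and without the other libraries lacking the hairpin the number was 339 (WT replicate 1), 303 (WT replicate 2) and 318 (V2084D replicate 1). When the hairpin group was represented by V2084D_shSTUB1 replicate 2 alone the number was 1639, and by replicate 1 alone 3304. With every list limited to its 7234 strongest summits, the length of the shortest list, the hairpin pair had 119 private regions, against 103 to 223 over all 15 pairs and 223 for the WT pair. Only 4 of the 279 members were among those 119, at GRK5, TSPAN2, DCBLD1 and CPEB2.

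By position, 75 private regions (26.9%, Wilson 95% interval 22.02% to 32.4%) had their strongest summit at a protein-coding gene end (no more than 1000 bp from the start or the end), 100 (35.8%, 30.4% to 41.6%) lay inside a gene away from its ends and 104 (37.3%, 31.8% to 43.1%) lay outside protein-coding genes. Intervals cover counting error only. The ends are the outer bounds of a gene, so a region inside a gene can still lie at an annotated start. Examples are PTDSS2, RAD51AP2 and RARB, with strongest summits 1, 56 and 371 bp past such a start. Their windows are among the promoters counted above. Regions private to the other pairs together had 35.0% at gene ends, and all merged regions 40.3%. Each of the other 6 pairs with at least 100 private regions had a higher share, from 27.5% for WT replicate 2 with V2084D replicate 2 to 37.5% for V2084D replicate 2 with V2084D_shSTUB1 replicate 1. The interval of the hairpin pair overlapped those of V2084D replicate 2 with either WT library and did not overlap those of V2084D replicate 2 with either hairpin library (35.5% to 39.6% and 33.9% to 40.6%). It also overlapped that of the V2084D pair (37.3%, 31.8% to 43.1%) and that of WT replicate 1 with V2084D_shSTUB1 replicate 1 (29.2%, 21.6% to 38.2%). Over all other pairs, 10 had a higher and 4 a lower share. The share without V2084D replicate 2 was 45.4%, and at equal list length it was 54.6%, where the pairs ranged from 44.4% to 67.8%, so its low place among the pairs was lost there. When every list was limited to a −log10 q of 5 or more, the share was 41.2% (Wilson 95% interval 33.3% to 49.6%, 136 regions). It was the lowest of the 5 pairs with more than 100 regions, where the others, all with V2084D replicate 2, stood at 60.6% to 63.5%. Only 10 of the private regions described above were among those 136, so this share is mostly that of other regions.

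At gene ends the table gives no strand, but 58 of the 75 regions had a gene with a known start, and 53 of these (91.4%) lay within 1000 bp of it. The share was 92.4% for all gene-end regions and 88.4% for those private to other pairs. Where the start is known, most gene-end members thus lay near it. The 75 regions touched 88 genes, 13 of them lying between ends of at least 2 genes, such as SLC39A7 and RXRB, a zinc transporter and a retinoid X receptor gene that shared 1 region on chromosome 6 (folds 4.67 and 4.29).

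**Figure D2:**
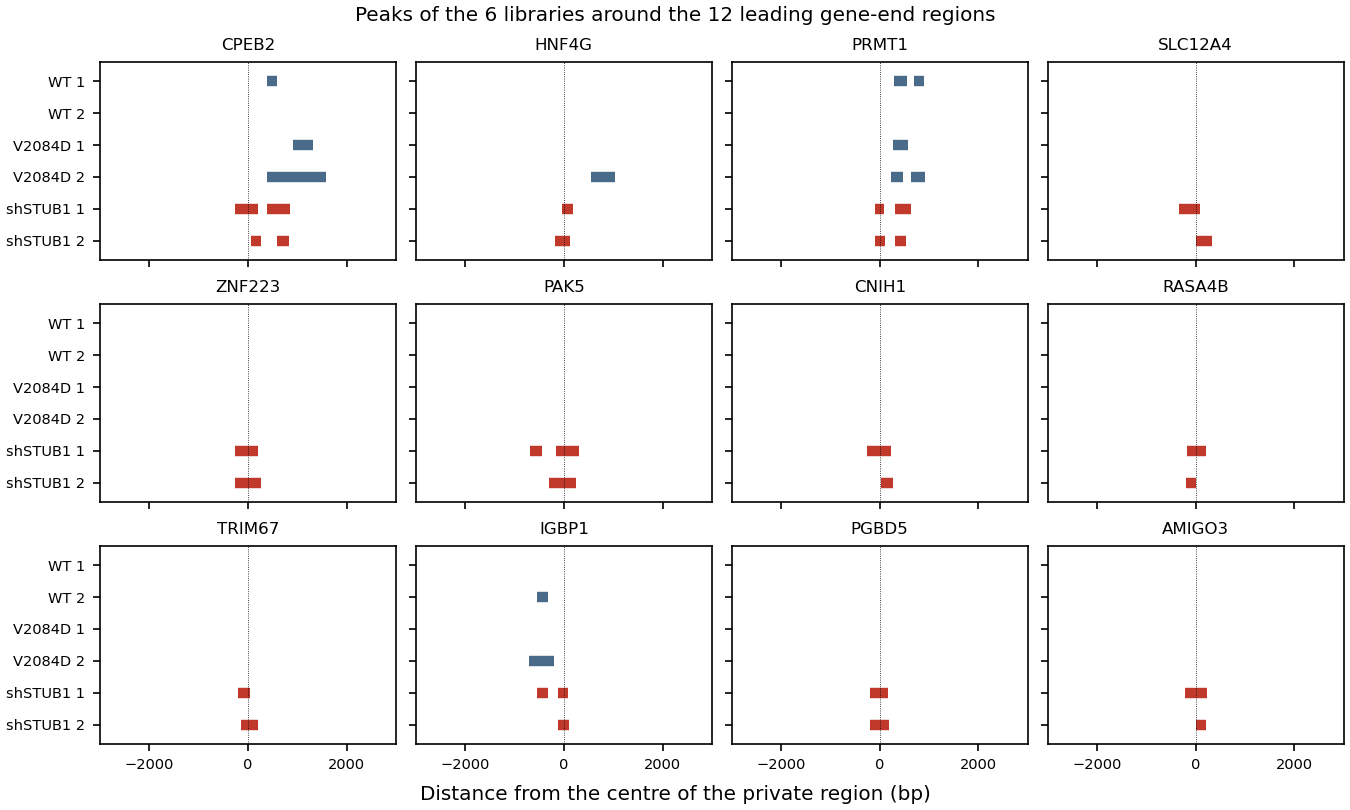
Peak intervals of the 6 libraries (rows) around the 12 strongest private regions at gene ends, drawn as distance in bp from the centre of the region, with hairpin libraries in red and the others in blue. Peaks of other libraries lie beside the regions of CPEB2, HNF4G, PRMT1 and IGBP1, and the other 8 panels show none.

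The 12 leading regions at gene ends are ranked by the mean percentile of their −log10 q in both hairpin lists. The fold is the number of reads at the summit plus 1 over the local background plus 1, as the authors' caller gave it. At CPEB2, an RNA-binding regulator of polyadenylation and translation (chr4:15001377-15001894, 783 bp before the start), the fold was 6.18 in V2084D_shSTUB1 replicate 1 and 5.44 in replicate 2, with 21 and 15 reads at the summits. A peak of V2084D replicate 2 began 118 bp away, and the CPEB2 end also had peaks in WT replicate 1 and V2084D replicate 1. At PRMT1, the main asymmetric arginine methyltransferase (chr19:49676306-49676513), the folds were 4.44 and 4.89 with 18 and 17 reads, the summits were 1 bp apart, and a V2084D replicate 2 peak lay 115 bp away. The regions of CPEB2 and PRMT1 had the most reads of the gene-end members, yet both were second peaks at ends already open in 3 of the other libraries.

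HNF4G encodes a nuclear receptor closely related to HNF4A. Its region of 357 bp had folds of 5.48 and 7.14 with 7 and 11 reads and lay 381 bp from a peak of V2084D replicate 2, the only other library with a summit at this gene end. At IGBP1 (chrX:70133694-70133917) the folds were 4.94 and 6.43 with 7 and 8 reads. Peaks of WT replicate 2 and V2084D replicate 2 stood upstream, the nearer 92 bp away.

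The remaining 8 leading regions had no peak of another library within 1000 bp. SLC12A4 (chr16:67968226-67968886) had folds of 5.29 and 7.35 with 8 and 9 reads, and the nearest other peak was 24373 bp away. PAK5 (chr20:9838623-9839239) had 5.75 and 6.17 with 9 reads in each library, and the nearest other peak was 195619 bp away. PGBD5 (chr1:230426404-230426790) had 5.23 and 5.92 with 8 reads in each, 115575 bp from the next. These promoters were isolated calls at 8 to 9 reads a summit.

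ZNF223, a zinc finger gene in a cluster of such genes on chromosome 19 (chr19:44051841-44052382), had folds of 5.47 and 6.62 with 6 and 8 reads. CNIH1, a cargo receptor for export from the endoplasmic reticulum (chr14:54441022-54441548), had 7.73 and 4.49 with 14 and 7 reads. TRIM67, a tripartite motif gene known from neurons (chr1:231162253-231162642), had 5.48 and 5.80 with 7 reads in each. RASA4B, a Ras GTPase-activating protein gene with near-identical copies on chromosome 7 whose reads could be split between copies (chr7:102517895-102518303), had 4.31 and 5.30 with 14 and 13 reads. At the shared end of AMIGO3 and GMPPB, the latter a GDP-mannose pyrophosphorylase subunit gene (chr3:49719396-49719837), the folds were 4.55 and 5.30 with 11 and 13 reads. GMPPB, unlike AMIGO3, also had a gene-end summit in WT replicate 1 and in both V2084D libraries.

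A private region did not make a private gene. Of the 88 genes with a private region at an end, 47 had another summit within 1000 bp of an end in at least 1 library without the hairpin, and 41 had none. V2084D replicate 2 accounted for most of them, with a summit at 45 of the genes, against 20 for V2084D replicate 1, 15 for WT replicate 1 and 10 for WT replicate 2. Its list was also the longest, at 22215 regions, against 8008, 8861 and 6394 in the same order. The same counts were not made for genes of other pairs, so they are not a trait of the members. Genes with end summits in all 4 included ADRM1 (a ubiquitin receptor of the proteasome), NUTF2 (a nuclear import factor), HACD1, TRMT2A and ABHD18. Among the 41 genes free of other summits were RPL11, a protein of the large ribosomal subunit (folds 6 and 5), PTTG1, the securin that holds sister chromatids (3.33 and 4.26), TET1, a DNA demethylating dioxygenase (3.78 and 4.30), SLC25A1, the mitochondrial citrate carrier (3.61 and 4.17), and H3C2, a replication-dependent histone H3 gene (4.23 and 4.66). These 5 genes were picked after their values were seen, and each stood on 6 to 13 reads in the 2 libraries.

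Inside genes, the leading region of the whole set lay in GRK5, a kinase of G protein-coupled receptors (chr10:119315593-119315845). Its fold was 9.21 in V2084D_shSTUB1 replicate 1 and 6.59 in replicate 2, with 20 and 11 reads over a background of 1.28 and 0.820 reads, and no other library had a peak within 61903 bp. The region lies 108158 bp past the gene's start. It was the only member above the 90th percentile of −log10 q in either list (96.2 in replicate 1, 72.6 in replicate 2). Exons and introns could not be told apart, since the table gives gene starts and ends only.

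GPHN encodes gephyrin, the scaffold of inhibitory synapses that also makes molybdenum cofactor (chr14:67413968-67414709), and had folds of 6.02 and 7.69 with 9 and 13 reads. ROR1, a receptor tyrosine kinase-like protein that binds WNT5A (chr1:64172432-64173020), had 5.42 and 7.21 with 12 and 15 reads, and a V2084D replicate 2 peak lay 141 bp away. DCBLD1, a membrane protein with a discoidin domain (chr6:117483678-117483901), had 5.93 and 6.74 with 13 and 11 reads, 1111 bp into the gene and 180 bp from a V2084D replicate 2 peak. The region in GPHN was thus isolated by 12289 bp, while the regions of ROR1 and DCBLD1 flanked sites that V2084D replicate 2 also had open.

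The other leading regions inside genes lay in GRID2IP, the scaffold delphilin of glutamate receptor synapses (chr7:6516504-6517100, folds 6.17 and 6.56), TMEM247 (5.56 and 7.33), TMEM37, related to calcium channel gamma subunits (8.24 and 5.06), and MARCHF3, a membrane-bound RING ubiquitin ligase (5.70 and 6.43). Their summits had 7 to 13 reads. The 100 regions fell in 98 genes. NEK10, a NIMA-related kinase gene, held 2 of them (folds 5.38 and 6.06, and 5.07 and 3.62), and NBDY, which encodes a microprotein of P-bodies, held 2 (4.33 and 4.70, and 3.69 and 4.65).

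Outside protein-coding genes, 66 regions lay within 50 kb of a gene and 38 farther away, with a median distance of 32624 bp. The leading one was 49599 bp upstream of TSPAN2, a tetraspanin gene (chr1:115138938-115139294), with folds of 6.94 and 7.97 and 9 and 10 reads. Its fold in replicate 2 was the highest of all members in that list. A region 4943 bp from KRT80, a keratin gene (chr12:52163904-52164254), had 6.25 and 6.62 with 8 reads in each library. A region 7550 bp upstream of FOXF2, a forkhead transcription factor gene (chr6:1381845-1382444), had 6.90 and 5.63 with 11 and 8 reads, and one 15102 bp upstream of MRPS18A (chr6:43702746-43703093), a mitochondrial ribosomal gene, had 6.04 and 6.10. The region 7011 bp from GOLGA8J lies among near-identical golgin copies on chromosome 15, so its reads (15 and 8, folds 7.62 and 5.11) are uncertain. It lay within 1000 bp of an end of the pseudogene ULK4P3 and 102 bp from a peak of V2084D replicate 1. Gene names give a place only, inside genes as well as outside, since no link between region and gene was measured.

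**Figure D3:**
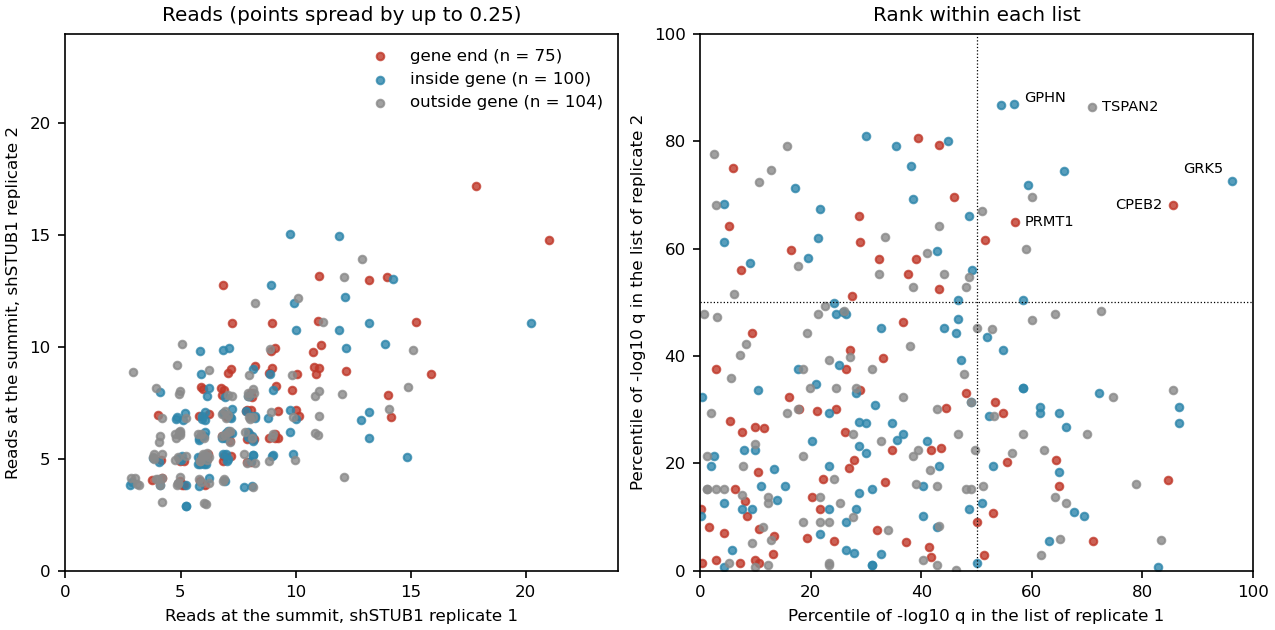
Reads at the strongest summit (left, whole numbers, with points spread slightly to separate them) and percentile of −log10 q within each list (right) for the 279 private regions, V2084D_shSTUB1 replicate 1 on the horizontal and replicate 2 on the vertical axis, coloured by position. Most points lie below the dotted 50th percentiles, and 13 lie above both.

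Private regions were weak. The median fold was 4.84 in V2084D_shSTUB1 replicate 1 (2.94 to 9.21) and 4.73 in replicate 2 (3.28 to 7.97), a mean of 4.78 ± 0.0771 (SD, n = 2). The median number of reads at the summit was 7 (3 to 21) and 6 (3 to 17), and 61 and 99 regions stood on 5 reads or fewer. All regions of these lists had medians of 10 and 9 reads and folds of 5.49 and 5.56. Only 25 members had at least 10 reads in both libraries, and only 10 had a −log10 q of at least 5 in both. Those 10 were the regions of GRK5, TSPAN2, CPEB2, GPHN, ROR1, DCBLD1, GRID2IP, KRT80, PRMT1 and MRPS18A.

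Over the private regions, −log10 q in one hairpin library was weakly related to that in the other (Pearson correlation 0.124, Spearman 0.137). Both were chosen by presence in these lists, and the same values were not set beside those of other pairs. The median percentile of −log10 q was 30.0 in replicate 1 and 26.8 in replicate 2. In all, 62 regions passed the 50th percentile in replicate 1 and 58 in replicate 2, but 13 in both and 172 in neither. The fold was higher in replicate 1 at 135 regions, in replicate 2 at 142 and equal at 2.

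**Figure D4:**
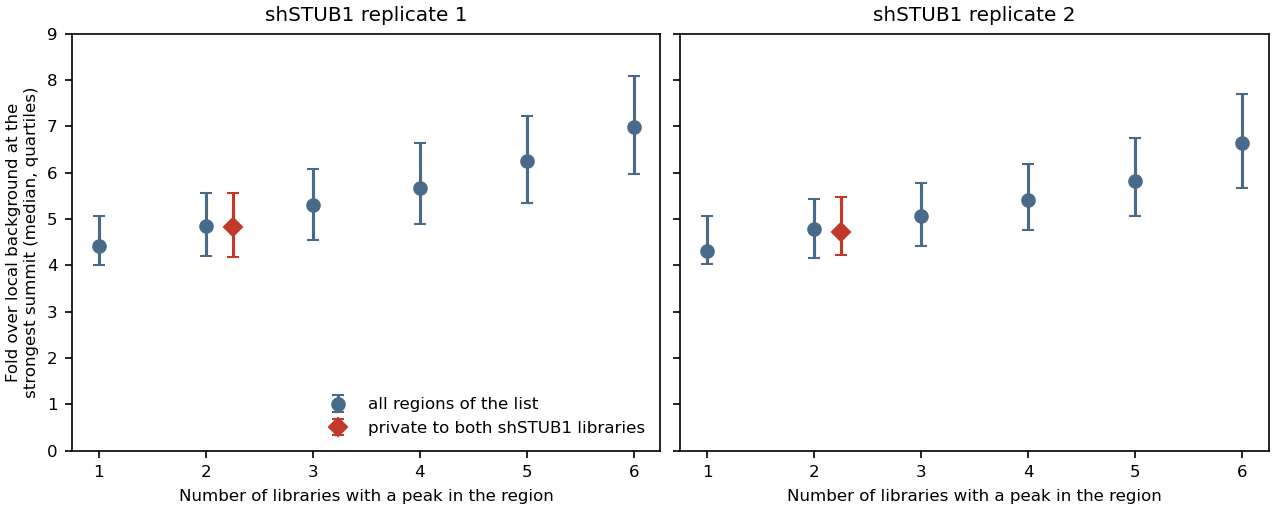
Median fold over local background (bars show quartiles) of the regions of each hairpin list by the number of libraries with a peak there, with the 279 private regions as a red diamond beside the regions seen in 2 libraries. The median rises from 4.43 in 1 library to 6.99 in 6 libraries in replicate 1 and from 4.32 to 6.64 in replicate 2, and the private regions stand at the level of 2 libraries.

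This strength was that of any region seen in 2 libraries. In the list of V2084D_shSTUB1 replicate 1, regions shared with V2084D replicate 2 alone had a median fold of 4.86 and those shared with WT replicate 1 alone 5.05. In the list of replicate 2 the corresponding medians were 4.79 and 4.82. Regions in a single library had 4.43 and 4.32, and regions in all 6 had 6.99 and 6.64. Gene-end members had median folds of 4.55 and 4.64, members inside genes 4.98 and 4.89, and members outside genes 4.79 and 4.82. The members differed less between positions than regions differed by the number of libraries that held them.

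The peaks of the 2 libraries coincided only in part. The private regions were narrow, with a median width of 374 bp (200 to 763), and none reached 1000 bp. The widest lay in NBDY (763 bp), GPHN (742 bp) and SLC39A12 (730 bp), a zinc transporter gene. Strongest summits of both libraries lay a median of 77 bp apart, within 50 bp at 102 regions, within 100 bp at 166 (59.5%) and over 200 bp apart at 47. In other pairs with at least 100 private regions the median gap was 67.5 to 90 bp. Both libraries covered a median of 49.8% of a region in common, and less than 10% of it at 17 regions.

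**Figure D5:**
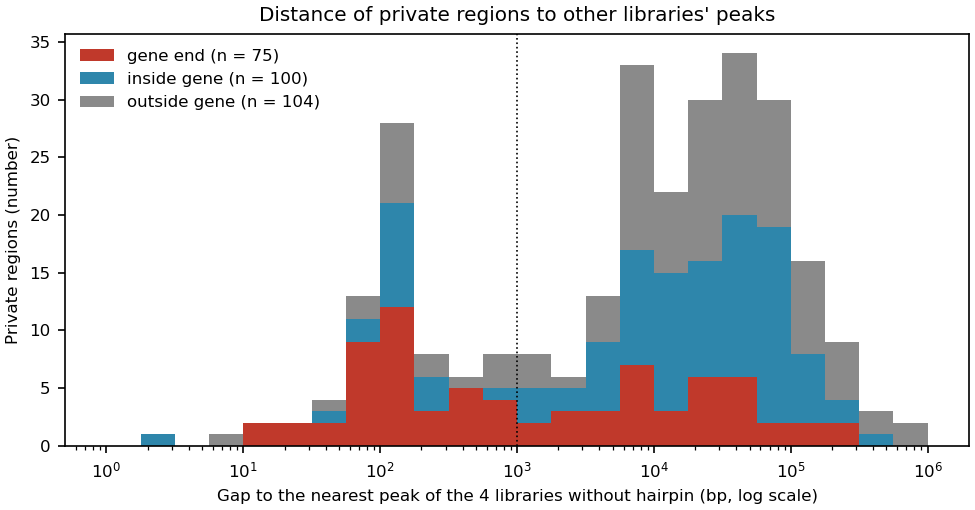
Private regions by the gap in bp (log axis) to the nearest peak of the 4 libraries without the hairpin, stacked by position. Gaps form a group around 100 bp, in which gene-end regions are frequent, and a larger group above 1000 bp. The dotted line marks 1000 bp.

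Some members lay beside a peak of a library without the hairpin, at a share within the range of the other pairs. The gap to the nearest such peak had a median of 11823 bp, with a lower quartile of 789 bp and extremes of 3 and 645497 bp. It was at most 100 bp at 23 regions (8.24%), at most 1000 bp at 73 (26.2%, Wilson 95% interval 21.4% to 31.6%) and at most 10 kb at 133 (47.7%). In the other pairs with at least 100 private regions, 14.4% to 29.2% lay within 1000 bp of a peak of a library outside the pair, 24.7% for the V2084D pair. By position, 39 of 75 gene-end members, 17 of 100 inside genes and 17 of 104 outside genes were within 1000 bp. The nearest peak belonged to V2084D replicate 2 for 203 of the 279. Without V2084D replicate 2 the share within 1000 bp was 13.5% over a set of 1656 regions. The smallest gaps were 3 bp to a WT replicate 2 peak at the region in NSD2, a histone H3 lysine methyltransferase gene (6 and 5 reads at the summits), 6 bp at the region 15241 bp from ALDH1L1, and 12 bp at CCDC198.

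Regions just outside the rule had a peak in both hairpin libraries and in exactly 1 other. There were 1466 of them, 1349 with V2084D replicate 2, 55 with WT replicate 1, 38 with V2084D replicate 1 and 24 with WT replicate 2. Those with V2084D replicate 2 had median folds of 5.33 and 5.07 and a gene-end share of 47.7%. At 39 of the 1466 the shared stretch was under 100 bp, and the smallest was 1 bp. At the weak end inside the rule stood the regions of CPEB1 (folds 3.41 and 3.52, 5 and 4 reads), PRKAR2B, a regulatory subunit of protein kinase A (3.57 and 3.57), and BICDL2 (3.66 and 3.53).

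Gene lists chosen for liver, chromatin, protein quality control and signalling had few private regions. Of 369 genes in 19 lists, 267 had a gene-end region in some library, and 4 of these (1.498%) had a private one, beside 0.780% of the 11286 protein-coding genes with any gene-end region. They were HNF4G among liver transcription factors (22 genes), FJX1, a Golgi kinase homologue, among YAP and TEAD targets (19 genes, folds 3.67 and 6.36), TNFRSF10B, the TRAIL receptor DR5, among p53 targets (18 genes, 3.81 and 5.88), and FDFT1, squalene synthase, among cholesterol and lipid synthesis genes (25 genes, 4.65 and 4.55). Each of these 4 regions lay within 1000 bp of a peak of another library, at 381, 763, 188 and 168 bp. Private regions inside list genes were at TCF7L1, a Wnt transcription factor, PIK3CB, a PI3-kinase catalytic subunit, and PDIA6, a disulfide isomerase of the unfolded protein response list.

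No private region lay at an end of, or inside, any of the 29 SWI/SNF subunit genes, the 40 chaperone and STUB1 partner genes or the 31 proteasome genes listed, of which 21, 33 and 30 had a gene-end region in some library. The same held for the listed genes of the TGF-beta pathway (25 genes), AP-1 (19), cell cycle (28) and hepatocyte metabolism (20). The lists do not hold every gene of a process. ADRM1 and PTTG1, named above, are outside the proteasome and cell cycle lists, and each had a private region at an end. Of all protein-coding genes with a gene-end region, only 0.780% had a private one, so absence from lists this short says little about them. No such share was computed for regions inside genes. STUB1 had no gene-end summit in any library, and ARID1A had one in V2084D_shSTUB1 replicate 2 alone. Since a hairpin acts on RNA, these peaks are no check of the labels.

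Gene families grouped by symbol are read beside the 0.780% of all genes with a gene-end region that had a private one, a share that gives under 1 gene in most of these families. At an end, 6 of the 398 solute carrier genes had a private region. Among them were SLC12A4, SLC25A1, SLC39A7, SLC66A1 and SLC7A1, and 210 members had a gene-end region in some library. The tripartite motif family, ubiquitin ligases in the main, had 3 of 79 (TRIM31, TRIM38 and TRIM67, with 35 in some library). Zinc finger genes had 2 of 518 (ZNF223 and ZNF696, with 369), and cytosolic ribosomal proteins 2 of 99 (RPL11 and RPL23, with 89). DNAJ chaperones (45 genes), USP deubiquitinases (77) and RING finger genes of the RNF family (87) had none at their ends, although the AMIGO3 region lies inside the overlapping gene RNF123.

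The liver label of the line had little support in gene-end peaks. Of 16 hepatocyte and hepatoma markers, 12 had no gene-end peak in any library, ALB, AFP, APOB, HNF4A and TTR among them. The other 4 were APOA1 (3 libraries), TF (4), FOXA1 (1) and GPC3 (1), the last 2 in V2084D replicate 2 alone. Of all 19974 protein-coding genes, 11286 had a gene-end region in some library, so many genes of any kind had none. Of the markers of other cell types, 4 of 6 leukocyte, 3 of 4 endothelial, 4 of 5 fibroblast and stellate and 3 of 4 neuronal genes had none. The exceptions were SPI1 (3 libraries), CD68 (2), KDR (5), COL1A1 (4) and SYT1 (6). No marker of any list held a private region. Only 0.780% of protein-coding genes with a gene-end region had a private one at an end, so this says little about the markers. At medians of 8 to 12 reads per summit, a site without a peak was not called, which does not show that it was closed.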

How the data were processed

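Peak lists of 6 ATAC-seq libraries were used, and titles gave the groups. For the authors' steps before deposit, the submitters' processing notes name build hg38 and, without versions or order, Bowtie2, MACS2, Picard, SAMtools, Trimmomatic, bedtools and deepTools. Settings, and whether reads were shifted to the Tn5 cut, are not stated in the sources used here. Each library has its own deposited narrowPeak list, so replicates were not pooled. The deposited score is an integer that follows −log10 q. For each summit the authors' deposited fold (the ratio of reads to local background), its −log10 p and its −log10 q were used within a list. Solving fold (with a pseudocount of 1) and the Poisson −log10 p together gave whole reads for 99.99% to 100% of summits per library, within 0.001 in −log10 p. Relative depth is each library's lowest background over that of WT replicate 2. Python 3.11.15, numpy 2.4.6, scipy 1.17.1, pandas 2.3.3 and matplotlib 3.10.9 were used, and the scripts were tested on simulated lists.

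Intervals overlapping by 1 bp on chromosomes 1 to 22 and X were merged, and 2.07% to 2.60% of summits per library lay elsewhere. Each region was placed by its strongest summit against 19974 protein-coding genes of the RefSeq table (GRCh38.p14). Promoter sequences are RefSeq's and were given for 15812 of these genes, none of them on chromosome 8. The members, gene lists and rules were chosen with earlier results of these data known. Named regions are the first 12 at gene ends, 8 inside and 5 outside genes by mean percentile of −log10 q, those at ends of listed genes, and the 3 widest, 3 lowest-ranked and 3 closest to another library's peak. No test across groups was run, because the rule uses the same lists. A result on 1 gene is not reported here.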

Additional observations from a re-analysis of the deposited data

How the results depend on the processing

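The number of private regions, their gene-end share, the mean of their 2 median folds and their share within 1000 bp of another library's peak were 279, 26.9%, 4.78 and 26.2%. They became 136, 41.2%, 6.36 and 11.8% with a −log10 q of at least 5 in every list, 119, 54.6%, 6.44 and 14.3% with lists of equal length (7234 summits), and 573, 45.0%, 5.09 and 70.3% with windows of 200 bp at summits. With at least 50% of a region covered, the number was 379, with 216 of the 279 members kept, and the gene-end share was 32.2%. The fold was then 4.96 and the share near another peak 59.4%. Merging intervals up to 100 bp apart moved the share near another peak to 18.4%. Requiring no other peak within 1000 bp left 206 regions with 17.5% at gene ends, and a share near another peak of 0 by construction. The gene-end share was 20.8% with a window of 500 bp and 34.1% with all annotated genes, and stayed close with 2000 bp, the midpoint or any overlap. Leaving out each library in turn gave 303 to 3304 regions, gene-end shares of 21.4% to 45.4%, folds of 4.48 to 5.16 and shares near another peak of 13.5% to 30.1%. The cause of these moves was not tested. Of the 36 named regions, 10 remained private with the stricter q, 4 at equal length, 31 with summit windows, 25 with 50% coverage, 32 with the wider merging and 23 with the required distance. The values of all 15 pairs at equal length were added after seeing the data. No paired analysis was possible because presence in a list was counted and no model was fitted, although the titles number the replicates 1 and 2 in each group. Summits stood on medians of 8 to 12 reads, which limits what a missing peak can show.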

Other observations

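The private regions were spread over all chromosomes analysed. Chromosome 1 held 36 of them (12.9%, against 10.9% of all regions) and chromosome 2 held 25 (8.96%, against 7.09%). Chromosome 6 held 26 (9.32%, Wilson 95% interval 6.44% to 13.3%, counting error only), against 5.80% of all regions and 6.08% of the regions private to other pairs. The regions found in V2084D_shSTUB1 replicate 1 or replicate 2 alone had 6.52% and 7.65% there, inside that interval. Among those 26 were the regions of TRIM38, H3C2, SLC39A7 with RXRB, FUCA2, UBE3D, RREB1, LRRC1 and DCBLD1, which lie along both arms and form no single block. Chromosomes 17 and 19, rich in genes, held 8 (2.87%, all regions 4.75%) and 10 (3.58%, all regions 5.31%). Only 2 members lay within 20 kb of another member, both in NBDY. This share by chromosome was looked at after the values were seen.

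Of the private regions away from protein-coding gene ends, 20 lay within 1000 bp of an end of another kind of gene. Members at protein-coding gene ends could also lie near such a gene, as at CPEB2 and BARX1, and are not in this count. It is not set beside other pairs, so it is not a trait of the members. The region nearest to PDXDC1 on chromosome 16, with folds of 4.35 and 5, lay 77 bp from MIR3180-4, a miRNA gene with near-identical copies. On sequences outside chromosomes 1 to 22 and X, the hairpin libraries alone shared 8 of 911 merged regions, the V2084D libraries alone 12 and the WT libraries alone 2.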
